A study of Rattus norvegicus and Mus musculus with 12 samples.

Results

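Contractile and smooth muscle actin genes were compared between chondrocytes stimulated with IL-1β and their controls in rats and mice, as a sign of dedifferentiation. The genes were 10 members taken by name: Acta2, Actg2, Tagln, Cnn1, Cnn2, Myl9, Tpm1, Tpm2, Des and Cald1. All 10 had a row in the rat table, which lists 19687 genes, and all 10 had a row in the mouse table, which lists 28603 genes. The study sequenced RNA from 12 cultures of articular chondrocytes at passage 1, with 3 libraries in each of 4 groups. The RC and RM groups came from newborn Sprague-Dawley rats and the MC and MM groups from newborn mice. For 24 h, RM and MM cells were cultured with the inflammatory cytokine IL-1β at 20 ng/ml, and RC and MC cells without it. The mouse strain labels run from C57BL/6 to C57BL/9 across libraries, while the methods name C57BL/6 alone. The methods describe 3 independent samples per group without the number of animals in each, so P values measure only the spread between these samples.

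Actin filaments, tropomyosin and myosin II form the contractile bundles of smooth muscle and the stress fibres of spread cells. Their genes are classical targets of serum response factor (SRF), which binds CArG boxes and is activated by myocardin-related cofactors when actin polymerizes. A round chondrocyte in cartilage has few such bundles, and chondrocytes that flatten in monolayer culture acquire stress fibres and smooth muscle actin while they lose type II collagen, a course known as dedifferentiation. Inflammatory cytokines also lower the cartilage matrix genes of chondrocytes.

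The libraries held 20169272 to 25903459 counted reads in rat and 16841580 to 20048322 in mouse. The cartilage program was present in the controls of both species, as 16 chondrocyte genes summed to 5870 to 6547 FPKM in RC and 2616 to 2672 FPKM in MC. It was lower with IL-1β, since Sox9, its master transcription factor, had log2 fold changes of -0.65 (rat) and -1.06 (mouse). Col2a1, the type II collagen gene, changed by -1.61 and -3.57, and Acan, the gene of the proteoglycan aggrecan, by -1.80 and -3.94. Scaling by TMM, which corrects for a shift in RNA composition, placed the mouse median over all genes at a log2 value of -0.02, whereas library size alone put it at -0.30. Mouse changes are given below on the TMM scale. In whole-culture RNA, fewer cells of a type and less RNA per cell cannot be told apart.

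In mouse, the members fell together. Of the 10, 9 had enough counts to be tested with edgeR's quasi-likelihood test, and these 9 were lower in MM than in MC at a Benjamini-Hochberg adjusted P under 0.05, as were 37.7% of all 14774 tested genes, while no member was higher (37.4% of all genes). In either direction, 75% of mouse genes were called. Tagln was the member not tested. Cnn1, Actg2 and Des passed the filter on low counts through the MC libraries, as only 0, 1 and 2 of their 3 MM libraries reached the required 0.564 CPM (reads scaled to a common library total). In rat, 5 of the 10 members were called, with 35.1% of all 13303 tested genes. Acta2, Actg2 and Tpm2 were lower in RM (16.8% of all genes) and Cnn2 and Tpm1 were higher (18.3%). Replicates varied more in rat, with a biological coefficient of variation, the spread beyond counting noise, of 0.106 against 0.0318 in mouse. Smaller changes therefore pass the test in mouse, and the numbers of calls and the P values are not alike between the species. The median log2 fold change was 0.13 over the 10 rat members and -2.70 over the 9 tested in mouse, against 0.01 and -0.02 over all tested genes. The mouse median is the value of Actg2, and Cnn1 and Des lie below it. As these genes passed the filter through the MC libraries, a large fall was favoured for them, and the mouse median depends on them.

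**Figure D1:**
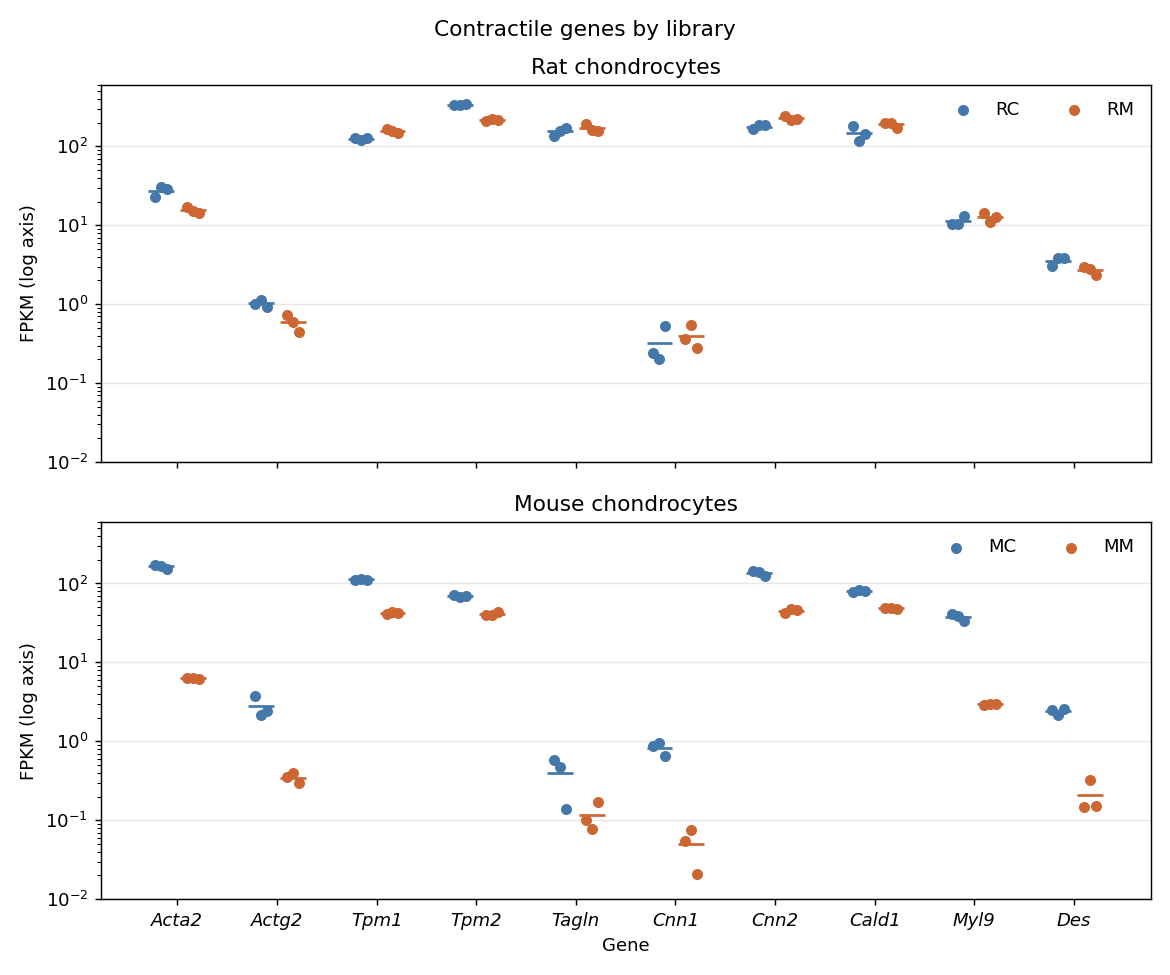
FPKM of each member in each library on a log axis, with 1 point per library and a bar at the group mean, for RC, RM, MC and MM. The MM points lie below the MC points for every member except Tagln, where they overlap, whereas the rat groups are close together and Acta2 falls from a mean of 27.5 to 15.4 FPKM.

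Acta2 encodes smooth muscle alpha-actin, the actin of vascular smooth muscle and of myofibroblasts. In mouse (ENSMUSG00000035783, GRCm38 chromosome 19, 34241090 to 34255590, minus strand), its level was 174, 167 and 153 FPKM in the 3 MC libraries and 6.33, 6.31 and 6.17 FPKM in the 3 MM libraries. Every MC library was thus far above every MM library. The log2 fold change was -4.43 ± 0.05 (SE, adjusted P = 7.03e-61, edgeR), the largest fall among the members, and 0.866% of tested genes had a lower value. In rat (ENSRNOG00000058039), the level was 22.8, 30.6 and 29.0 FPKM in RC and 16.9, 15.1 and 14.3 FPKM in RM. The groups again did not overlap, but the fall was -0.85 ± 0.12 (SE, adjusted P = 2.96e-04), with 5.81% of genes lower.

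The promoters of rat Acta2 and Cnn2 are shown because, among the members matched, only these held a match to the motif described below. Acta2 fell in both species, and Cnn2 rose in rat and fell in mouse. Rat promoters were taken from RefSeq (build GRCr8), in which 8 of the 10 members were matched and Tagln and Myl9 were not. Each sequence gives the 250 bases before the start, read 5′ to 3′ on the gene's own strand. Capitals mark a CArG box, which is CC, 6 bases that are A or T, and GG, or a CArG-like match in which 1 of the 6 middle bases is C or G.
Acta2, chr1:241172504-241172753, minus strand: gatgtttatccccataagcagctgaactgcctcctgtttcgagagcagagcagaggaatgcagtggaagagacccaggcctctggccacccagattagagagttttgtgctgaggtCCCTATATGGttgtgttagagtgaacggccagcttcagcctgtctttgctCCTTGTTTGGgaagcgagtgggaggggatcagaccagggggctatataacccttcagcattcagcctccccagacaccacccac
Cnn2, chr7:10370313-10370562, minus strand: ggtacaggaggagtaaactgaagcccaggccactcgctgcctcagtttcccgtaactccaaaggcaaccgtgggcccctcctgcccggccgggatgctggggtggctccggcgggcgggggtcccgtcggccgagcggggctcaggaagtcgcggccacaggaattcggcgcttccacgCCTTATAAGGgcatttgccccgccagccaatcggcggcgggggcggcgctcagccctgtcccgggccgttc
Acta2 held 2 CArG-like matches, beginning at positions -134 and -84 relative to the start, and Cnn2 held 1 CArG box, beginning at -71. The motif reads the same way on both strands. The windows of Actg2, Cnn1, Tpm1, Tpm2, Des and Cald1, from 250 bases before to 50 after the start, held neither form. Of all 33469 rat promoters, 1.64% held a CArG box, 8.1% a CArG-like match and 9.42% either. A match is a description of the letters and not a measured site.

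Actg2 encodes smooth muscle gamma-actin, the actin of gut and other visceral muscle, and was scarce in chondrocytes. In mouse (ENSMUSG00000059430, chromosome 6, 83512905 to 83536265), it stood at 3.71, 2.17 and 2.43 FPKM in MC and 0.352, 0.394 and 0.294 FPKM in MM. These groups did not overlap, and the log2 fold change was -2.70 ± 0.28 (SE, adjusted P = 5.14e-13, edgeR). In rat (ENSRNOG00000029401), it stood at 1.02, 1.12 and 0.934 FPKM in RC and 0.733, 0.598 and 0.441 FPKM in RM, where all RM libraries were lower. The rat change was -0.82 ± 0.28 (SE, adjusted P = 0.0463) from 101 counts in RC and 58 in RM, and this call was lost on leaving out any single rat library (adjusted P 0.0563 to 0.155).

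The smooth muscle actins were set against the cytoplasmic actins, which build the ordinary cytoskeleton. Acta2 made up 12.8% ± 0.17 (SD, n = 3) of the summed FPKM of the 6 actin genes in MC and 0.939% ± 0.024 in MM. In rat, the share was 0.875% ± 0.052 in RC and 0.472% ± 0.048 in RM. The groups did not overlap in either species, and an exact two-sided permutation test gave P = 0.1 in each, the smallest value that 3 against 3 libraries allow. Actb, the beta-actin gene, held 46.7% of actin FPKM in MC and 52.0% in MM, and 93.2% in RC and 92.4% in RM. Actg1, the cytoplasmic gamma-actin gene, held 40.2% and 46.9% in the mouse groups and 5.87% and 7.12% in the rat groups. Of the 50-base stretches of mouse Actg1 transcripts, 37.4% occurred in transcripts of other genes, mostly of Gm12715 (33.2%). For Actb it was 9.12%, mostly in Lrrc58 (6.14%), and for Acta2 0.326%, in Actg-ps1. The Actg1 and Actb shares are therefore the less certain. Sharing among the 6 actin genes themselves was not counted separately. In its own right, Actb changed by 0.03 on the log2 scale in rat (adjusted P = 0.771) and by -0.51 in mouse (adjusted P = 1.78e-25, edgeR), which is small beside Acta2 in mouse.

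**Figure D2:**
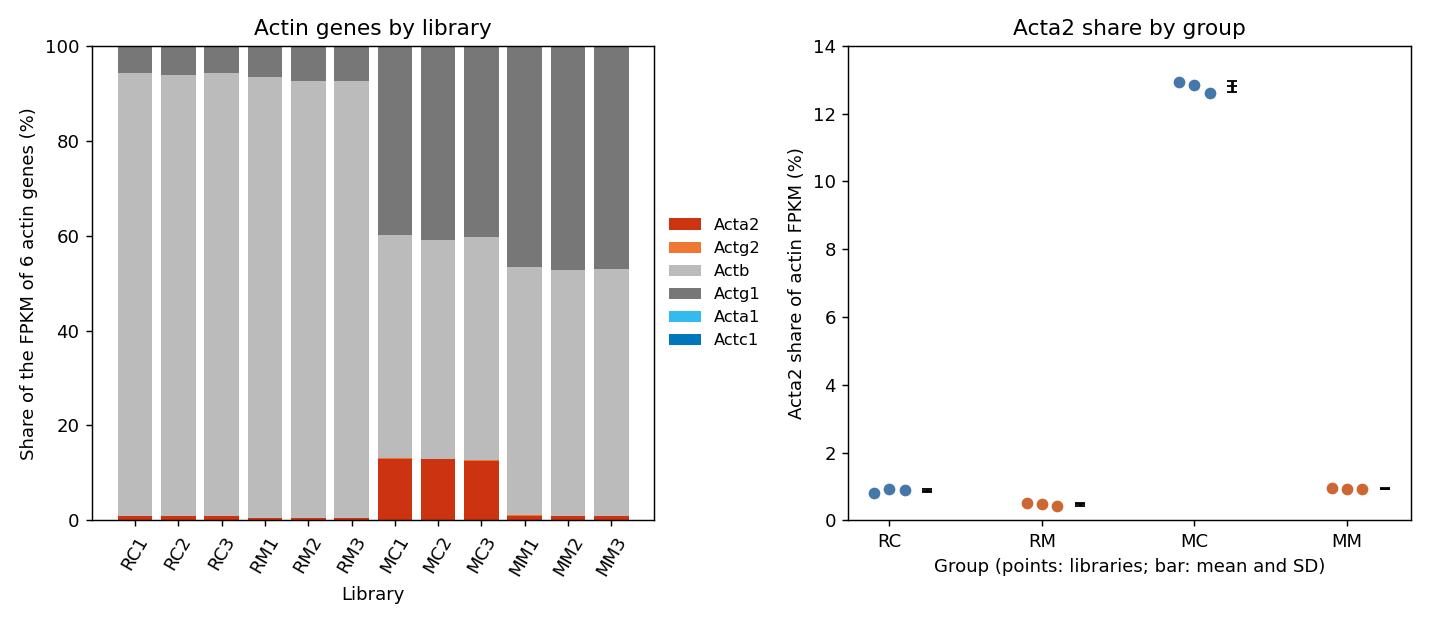
Share of each actin gene in the summed FPKM of 6 actin genes, in percent, as stacked bars per library (left), and the Acta2 share with 1 point per library and the group mean with its SD (right). The MC libraries sit at 12.61 to 12.95% and the MM libraries at 0.925 to 0.967%, while RC spans 0.817 to 0.918% and RM 0.42 to 0.514%.

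Tropomyosins wind along the actin filament and set which proteins may bind it. Mouse Tpm1 (ENSMUSG00000032366, chromosome 9, 67022590 to 67049406) was at 112, 114 and 111 FPKM in MC and 41.6, 43.0 and 42.8 FPKM in MM. Rat Tpm1 (ENSRNOG00000018184) was at 128, 121 and 126 FPKM in RC and 167, 156 and 146 FPKM in RM. Neither pair of groups overlapped and the directions were opposite, with a log2 fold change of -1.13 ± 0.03 in mouse (SE, adjusted P = 7.50e-43, edgeR) and 0.30 ± 0.07 in rat (adjusted P = 0.00642).

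Tpm2, the beta-tropomyosin gene, instead fell in both species. Mouse Tpm2 (ENSMUSG00000028464, chromosome 4, 43514711 to 43523765) was at 71.7, 67.1 and 70.1 FPKM in MC and 39.7, 40.5 and 43.5 FPKM in MM. Rat Tpm2 (ENSRNOG00000016731) was at 333, 333 and 345 FPKM in RC and 212, 219 and 215 FPKM in RM. All model libraries were below all control libraries, and the log2 fold change was -0.48 in mouse (adjusted P = 3.02e-18, edgeR) and -0.66 ± 0.06 in rat (SE, adjusted P = 1.56e-05). Tpm2 had the smallest adjusted P of the rat members.

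Calponins and transgelin are actin-binding proteins of related sequence, and caldesmon holds tropomyosin on the filament. Cnn2, the calponin of many non-muscle cells, was at 143, 139 and 123 FPKM in MC and 42.8, 46.9 and 45.5 FPKM in MM (ENSMUSG00000004665, chromosome 10, 79988584 to 79996062). In rat (ENSRNOG00000043044), it was at 165, 184 and 186 FPKM in RC and 239, 216 and 224 FPKM in RM. Every MM library was lower and every RM library higher than its controls, with log2 fold changes of -1.30 (adjusted P = 1.05e-38, edgeR) and 0.33 ± 0.08 (SE, adjusted P = 0.00691). Cnn1, the smooth muscle calponin, was close to the detection limit, with 41, 44 and 32 counts in MC and 3, 4 and 1 in MM (ENSMUSG00000001349, chromosome 9, 22099216 to 22109630). The mouse groups did not overlap, and the fall was -3.67 ± 0.44 (SE, adjusted P = 2.93e-11) from a mean below 1 FPKM, and was -0.80 with limma on log2(FPKM + 1), a scale that shrinks changes of scarce genes. Rat Cnn1 (ENSRNOG00000027736) was at 0.241, 0.201 and 0.537 FPKM in RC and 0.364, 0.540 and 0.278 FPKM in RM. These overlapped, and the 95% interval of the log2 fold change ran from -0.73 to 1.31.

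Tagln encodes transgelin (SM22), an early marker of the smooth muscle lineage. Rat Tagln (ENSRNOG00000017628) was at 136, 158 and 173 FPKM in RC and 189, 160 and 158 FPKM in RM. The groups overlapped, and the log2 fold change was 0.10 with a 95% interval of -0.12 to 0.33 (adjusted P = 0.453, edgeR). Mouse Tagln (ENSMUSG00000032085, chromosome 9, 45929619 to 45936058) had only 20, 16 and 5 counts in MC and 4, 3 and 6 in MM. The mouse groups overlapped, and the gene did not pass the filter on low counts. Fitted without that filter, its log2 fold change was -1.48 (adjusted P = 0.0141). In GENCODE M21, 62.4% of the mouse Tagln exon bases (1241 of 1988) lie under the exons of Gm48529, an antisense gene with 4 to 15 counts per library, and 5.43% under those of Pcsk7. Whether the counting used strand is not stated, and the part of this overlap in the low mouse count was not tested.

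Cald1, the caldesmon gene, was at 78.7, 82.3 and 80.6 FPKM in MC and 48.8, 48.8 and 48.1 FPKM in MM (ENSMUSG00000029761, chromosome 6, 34598500 to 34775473). The mouse groups were far apart relative to their spread, and the log2 fold change of -0.45 (adjusted P = 1.53e-23, edgeR) was the smallest fall among the tested mouse members. Rat Cald1 (ENSRNOG00000010233) was at 181, 118 and 142 FPKM in RC and 198, 199 and 172 FPKM in RM. RC replicate 1 lay inside the RM range, and the change of 0.35 did not pass (adjusted P = 0.0649), whereas without that library it was 0.51 (adjusted P = 1.78e-04).

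Myl9 encodes the regulatory light chain of smooth muscle and non-muscle myosin II, whose phosphorylation starts contraction. Mouse Myl9 (ENSMUSG00000067818, chromosome 2, 156775420 to 156781658) was at 40.6, 38.8 and 33.5 FPKM in MC and 2.88, 2.99 and 2.95 FPKM in MM. Rat Myl9 (ENSRNOG00000020246) was at 10.3, 10.3 and 13.3 FPKM in RC and 14.4, 11.1 and 12.7 FPKM in RM. The mouse groups stood apart with a log2 fold change of -3.40 (adjusted P = 5.96e-39, edgeR), whereas the rat groups overlapped and the change of 0.16 did not pass (adjusted P = 0.408).

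Des encodes desmin, the intermediate filament protein of muscle. Mouse Des (ENSMUSG00000026208, chromosome 1, 75360329 to 75368579) was at 2.47, 2.14 and 2.57 FPKM in MC and 0.146, 0.327 and 0.152 FPKM in MM. Rat Des (ENSRNOG00000019810) was at 3.01, 3.88 and 3.83 FPKM in RC and 2.94, 2.77 and 2.38 FPKM in RM. No groups overlapped, and mouse Des fell by 3.22 on the log2 scale (adjusted P = 3.82e-21, edgeR). The rat change of -0.42 did not pass (adjusted P = 0.0591), but it did without RC replicate 1, at -0.55 (adjusted P = 0.00971).

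Counted on FPKM without a model, 9 mouse members had MM libraries all below the MC libraries, as had 54.9% of tested genes, and none had them all above (25.4%). FPKM are scaled by library total and not by TMM. Mouse FPKM thus carry the downward shift of library size alone, whose median over all genes was -0.295. In rat, 4 members had RM libraries all below RC (22.3% of genes) and 2 all above (25.5%). The study's criteria for differentially expressed genes name a P value, a fold change and 1 FPKM, without saying whether P is adjusted or the change is on a log scale. They were read here as P under 0.05 before adjustment, a change of 0.85 or more on the log2 scale, and 1 FPKM or more. In mouse, 6 members met them as lower, namely Acta2, Actg2, Cnn2, Myl9, Tpm1 and Des (13% of genes), and none as higher (12.6%). Acta2 alone met them in rat, as lower (3.9% of genes, against 4.64% higher). A log2 fold change of -2 or lower was seen for Acta2, Actg2, Cnn1, Myl9 and Des in mouse (5.85% of genes) and for no member in rat (0.91%). Among these, Actg2, Cnn1 and Des passed the filter on low counts through the MC libraries, so a large fall was favoured for them.

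The change itself was compared between the species in 1 fit of the 10912 genes tested in both, as the log2 fold change in mouse minus that in rat. The 9 members that could be tested all differed at an adjusted P under 0.05, as did 63.8% of genes. For 8 members the change was lower in mouse (32.3% of genes), and for Tpm2 it was higher (31.4%). The gap was -3.58 ± 0.14 for Acta2 (SE, adjusted P = 1.03e-12, edgeR) and -3.55 ± 0.19 for Myl9 (adjusted P = 3.65e-11). That of Cnn1 was -3.98 ± 0.67 (adjusted P = 6.25e-05), but its 95% interval of -5.40 to -2.57 holds the other values and rests on 8 MM counts. With limma on log2(FPKM + 0.1) and log2(FPKM + 1), the Cnn1 gap was -2.89 and -0.87, against -3.87 and -3.72 for Acta2. Des followed at -2.80 ± 0.29 and Actg2 at -1.88 ± 0.43. Among the abundant filament proteins, the gap was -1.64 ± 0.10 for Cnn2, -1.43 ± 0.07 for Tpm1 and -0.80 ± 0.15 for Cald1. The gap of Tpm2 was 0.18 ± 0.07 (adjusted P = 0.0281), and it turned to -0.11 when library size alone replaced the TMM factors. Species, culture and sequencing tables differ together here and cannot be told apart.

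**Figure D3:**
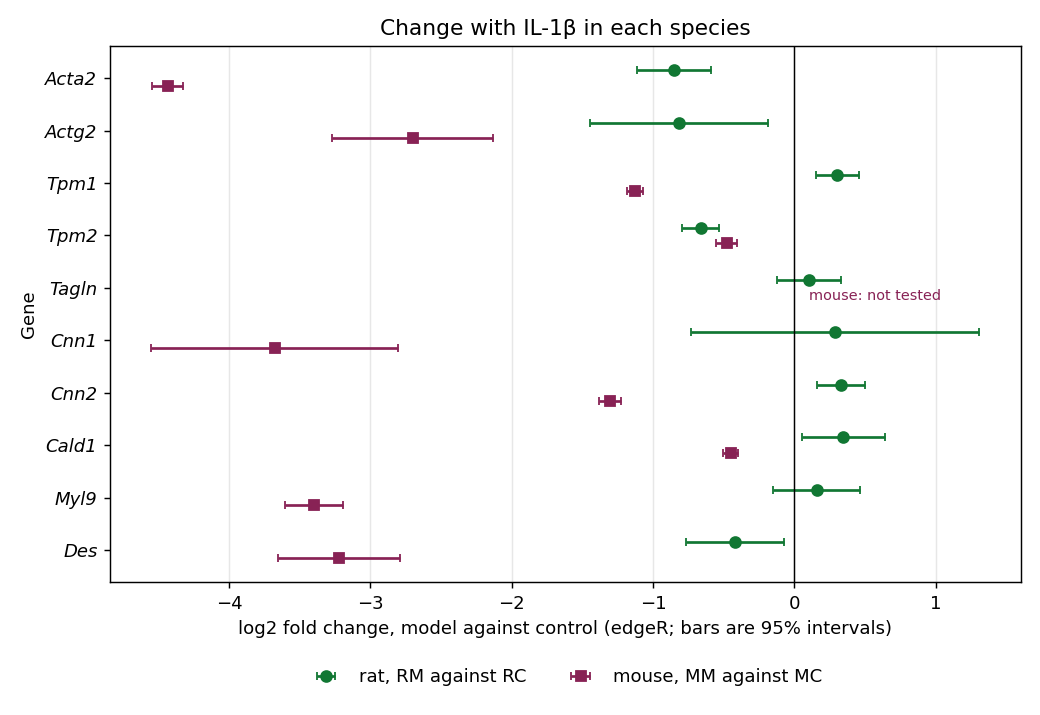
Log2 fold change of model against control for each member in rat and in mouse, with bars giving the 95% confidence interval from edgeR. The rat values lie between -0.85 and 0.35, whereas the mouse values run from -4.43 to -0.45, and Tpm2 is the member whose values in rat and mouse lie closest together.

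Levels per length were ordered within each group by FPKM. In RC, Tpm2 was highest, followed by Cnn2, Tagln, Cald1 and Tpm1, in which each neighbour overlapped the next, and then by Acta2, Myl9, Des, Actg2 and Cnn1 without overlap between neighbours. In RM, Cnn2 and Tpm2 led and overlapped, and Acta2 and Myl9 overlapped. In MC, Acta2 was the highest member, above Cnn2, Tpm1, Cald1, Tpm2 and Myl9 in that order without overlap. In MM, Cald1 led, and Acta2 came after Cnn2, Tpm1 and Tpm2, whose neighbouring ranges overlapped. The summed level of the 10 members was 960 to 1021 FPKM in RC and 944 to 1040 FPKM in RM, which overlap. In mouse, the sum was 577 to 627 FPKM in MC and 183 to 190 FPKM in MM. Like all FPKM here, these sums are not scaled by TMM. Of the 5 members that set most of the rat sum, Tpm2 was lower, Cnn2 and Tpm1 were higher, and Tagln and Cald1 were not called. FPKM values are not compared between the species, because gene models and library composition differ. The exon length of mouse Acta2 implied by its FPKM was 1781 bases, against 2196 in GENCODE M21. A greater length lowers FPKM, so the lead of Acta2 over Cnn2 in MC (means of 165 and 135 FPKM) depends on it. The high rank of Cnn2 in rat likewise depends on an implied length of 723 bases, against 2460 for mouse Cnn2. By counts, rat Cnn2 had 8895 in RC, below Cald1 (45883), Tpm2 (34732) and Tpm1 (27051).

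The genes nearest to Acta2 in their pair of log2 fold changes were sought among 6257 genes with a mean of at least 5 FPKM in a group of each species. Cav3, the muscle caveolin, was closest, at a distance of 0.194 on the log2 scale, with -1.04 in rat and -4.40 in mouse. Ldb2 (-0.61 and -4.67), Col14a1, a fibril-associated collagen gene (-1.10 and -4.70), Itgbl1 (-1.34 and -4.37) and Lsp1, an actin-binding protein gene (-0.36 and -4.31), came next. Mouse Cav3 was at 8.33, 9.08 and 8.52 FPKM in MC and 0.388, 0.309 and 0.297 FPKM in MM. With 9, 7 and 6 counts in MM, it passed the filter on low counts through the MC libraries. Mouse Ldb2, with 15, 9 and 10 counts in MM, also did, so a large fall was favoured for both. Of the other members, Actg2, Cnn1 and Des were too scarce to enter this search, and Tagln was not tested in mouse. None of the members that entered it was among the 5 genes nearest to Acta2.

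Other genes of the filament and of its control were taken as lists, to be read against the shares of all genes called, 37.4% higher and 37.7% lower in mouse and 18.3% higher and 16.8% lower in rat. Of the other actin genes, 3 of 3 tested were lower in mouse, including Acta1, the skeletal muscle actin gene (-1.61), and in rat 1 of 2 tested was higher (Actg1, 0.32). Among 8 further thin filament genes, 5 were lower and 2 higher in mouse, and 3 of 7 tested were lower and 2 higher in rat. Cnn3, the acidic calponin gene, changed by -1.45 in mouse and -0.59 in rat, and Smtn, the smoothelin gene, by -1.53 and -0.42. Tpm4, a non-muscle tropomyosin gene, rose in both, by 0.92 and 0.42. With library size alone, Tpm3 of this list turned from higher to not called in mouse.

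Of 8 genes of myosin II and its kinase, 7 were lower and none higher in mouse, and 3 were lower and 2 higher in rat. Mylk encodes the kinase that phosphorylates the Myl9 product. It fell to a like extent in both species, from 4.10 ± 0.43 to 0.517 ± 0.083 FPKM in rat (SD, n = 3) and from 2.37 ± 0.06 to 0.259 ± 0.030 FPKM in mouse. Its log2 fold changes were -3.00 and -2.92, and the 95% interval of the difference was -0.31 to 0.47. Myh10, a non-muscle myosin heavy chain gene, changed by 0.38 in rat and -1.05 in mouse, the same directions as Tpm1 and Cnn2. Myh9, the other main non-muscle heavy chain gene, changed by -0.59 in mouse and did not pass in rat (0.39, adjusted P = 0.288, edgeR).

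Transcripts of SRF and its cofactors were tested for 3 genes in each species, with 2 higher in mouse and none called in rat. With library size alone, 1 was lower and none higher in mouse, and the lower gene was Srf (-0.34, adjusted P = 1.98e-07, edgeR). With TMM, Srf changed by -0.06 in mouse (adjusted P = 0.307) and 0.18 in rat (adjusted P = 0.121). Mrtfb, a cofactor gene, changed by 0.31 in mouse with TMM and by 0.03, not called, with library size alone. Mrtfa, another cofactor gene, was 0.19 higher in mouse with TMM and -0.09 with library size alone, and changed by -0.05 in rat (adjusted P = 0.69).

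Of 14 SRF targets of focal adhesions and stress fibres, 7 were higher and 6 lower in mouse, and 5 were higher and 2 lower in rat, while library size alone gave 4 higher and 9 lower in mouse. The mouse counts lie near the shares of all genes, which were 37.4% higher and 37.7% lower. Vcl, the vinculin gene, changed by -1.74 in mouse and -0.28 in rat, and Ccn2, a matricellular gene, by -1.34 and -0.48. Actn1, the alpha-actinin gene, rose by 0.96 and 0.42. Of the other intermediate filament genes, Vim, the vimentin gene of mesenchymal cells, changed by -0.91 in mouse and -0.39 in rat, and Lmna, a nuclear lamin gene, by -0.33 in mouse and -0.18 in rat (adjusted P = 0.102, edgeR). Nes, the nestin gene, rose by 1.77 in mouse and changed by 1.12 in rat (adjusted P = 0.0528). That list had 3 lower and 1 higher of 5 tested in mouse and 4 lower and none higher of 6 in rat.

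Of the fibroblast and dedifferentiation genes, 6 were lower and 5 higher of 11 tested in mouse (8 and 3 with library size alone), where 37.7% and 37.4% of all genes were. In rat, 5 were lower and 4 higher of 12, where 16.8% and 18.3% of all genes were. Col1a2, a type I collagen gene that dedifferentiated chondrocytes express, changed by -2.05 in mouse and -0.88 in rat. Tnc, the tenascin-C gene, rose by 2.91 in mouse and changed by 0.12 in rat (adjusted P = 0.233, edgeR). Chondrocyte genes fell nearly throughout, with 15 of 16 lower in mouse, where 1 was higher, and 15 of 16 lower in rat. Col9a1 and Col11a1, cartilage collagen genes, changed by -4.21 and -2.71 in mouse and by -1.31 and -0.84 in rat. In both species, Acta2 and Actg2 were lower together with these cartilage matrix transcripts. The rat call of Actg2, however, was lost on leaving out any single rat library. Cnn2 and Tpm1 were instead higher in rat while these transcripts were lower.

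**Figure D4:**
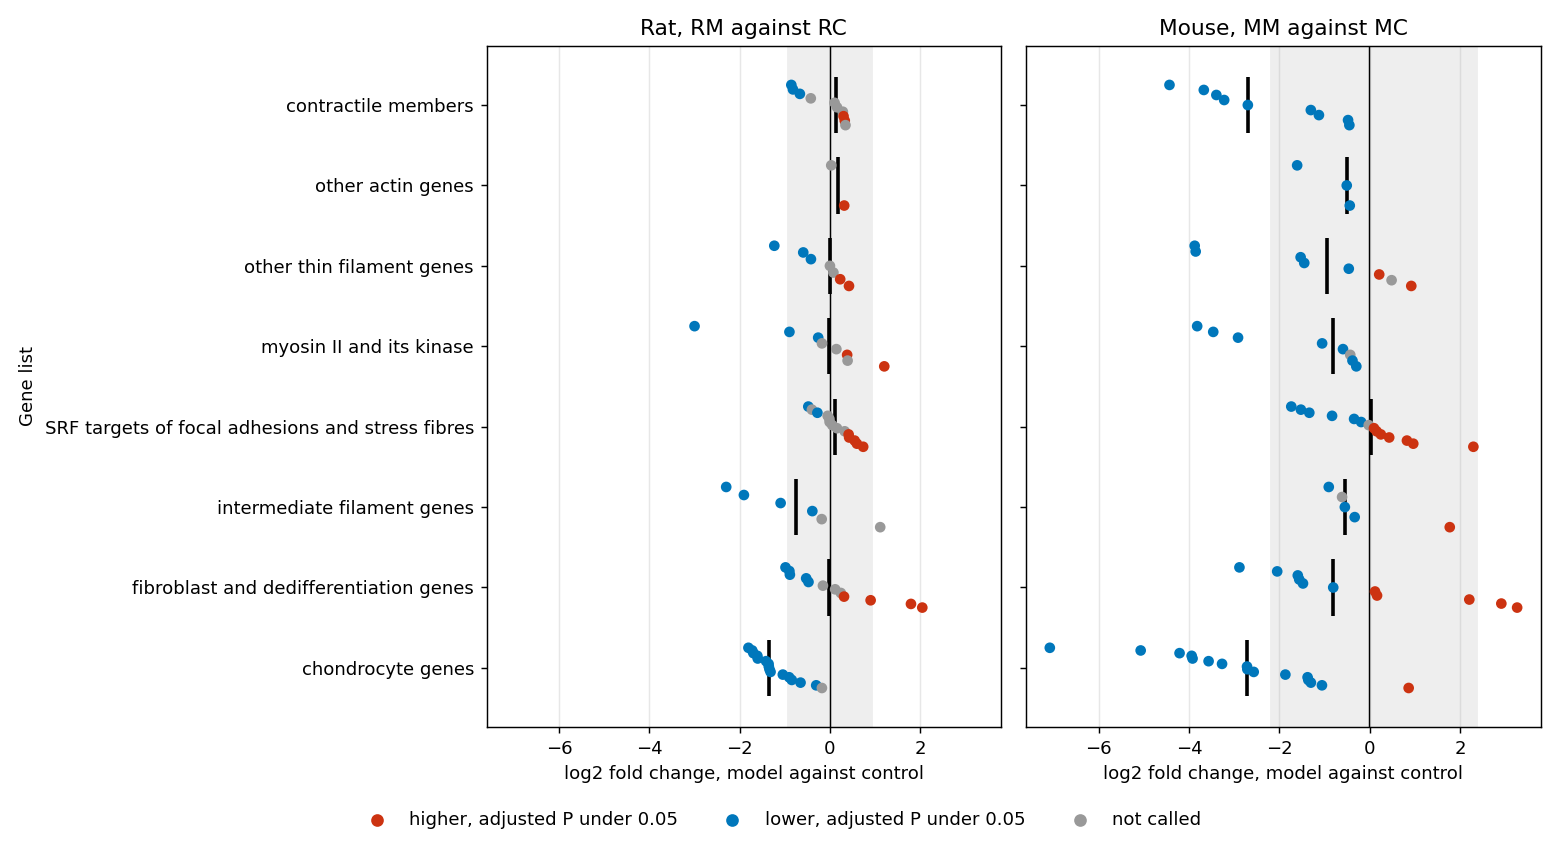
Log2 fold change of each tested gene of the members and of 7 related lists in rat and mouse, with a bar at the median of each list. The grey band spans the 5th to 95th percentile of all tested genes, -0.92 to 0.93 in rat and -2.19 to 2.38 in mouse, and 5 mouse members lie to the left of it. Among these, Actg2, Cnn1 and Des passed the filter on low counts through the MC libraries.

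Markers of other cells that express contractile genes moved as well, and their part in the member changes was not tested. Of 8 vascular mural cell markers, 6 were tested in each species, with 4 lower and 2 higher in both, and their summed level went from 125 to 131 FPKM in MC to 55.1 to 56.0 FPKM in MM, and from 83.0 to 97.3 FPKM in RC to 65.2 to 68.6 FPKM in RM. Pdgfrb and Cspg4, which mesenchymal cells also express, made up most of these sums. Pdgfrb changed by -1.41 in mouse and -0.42 in rat, Cspg4 by -0.59 and -0.63, and Notch3 by 1.93 and -1.51. Myh11, the smooth muscle myosin heavy chain gene, was named after its values were seen. It had 52 counts in MC and 3 in MM over the group, and it rose in rat from 0.959 to 2.24 FPKM. Skeletal muscle markers (11 genes, 3 tested in mouse and 2 in rat) summed to 3.02 to 4.02 FPKM in MC and 0.52 to 1.15 FPKM in MM, and to 3.89 to 5.38 FPKM in RC and 2.20 to 2.89 FPKM in RM. Tnnt3, a fast troponin gene, was the member of that list called in each species, at -5.15 from 170 counts in MC and 4 in MM, and -1.12 in rat. Mouse Tnnt3 passed the filter on low counts through the MC libraries, so a large fall was favoured for it. The other tested markers were not called, with Mylpf, a fast myosin light chain gene, at 0.51 in mouse (adjusted P = 0.243, edgeR) and -0.34 in rat (adjusted P = 0.48), and Ttn, the titin gene, at 0.22 in mouse (adjusted P = 0.516). Endothelial markers stayed below 0.8 FPKM in sum in every library. Macrophage and leukocyte markers summed to 5.37 to 5.94 FPKM in MC and 10.2 to 13.2 FPKM in MM, and to 8.54 to 9.61 FPKM in RC and 9.34 to 12.7 FPKM in RM. Of these, Cd68 changed by 1.51 in mouse and 0.92 in rat and Lyz2 by 1.01 and -0.87. No gene of these marker lists with a row in the table was at 0 in all libraries of a species.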

How the data were processed

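RNA-seq libraries from 12 chondrocyte cultures (RC, RM, MC and MM, n = 3) were grouped by the treatment and species labels. Per the labels, each species has 1 table of raw counts per Ensembl gene, and the authors deposited FPKM beside them, which scale a count by gene length and library total. The processing notes of the submitters name HISAT2, HTSeq 0.11.2, GRCm38 and Rnor_6.0. Neither the annotation release nor the strand setting is given in the sources used here.

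The counts of each species were fitted with edgeR 4.0.16 under R 4.3.3 (filterByExpr, TMM, glmQLFit and glmQLFTest), and Benjamini-Hochberg adjustment ran over every gene tested. The difference between species was fitted over genes shared by symbol, with TMM factors set within each species. DESeq2 1.42.0, limma 3.58.1 on log2(FPKM + 1) and log2(FPKM + 0.1), other scalings, no filter, a replicate block and leaving out each library were alternatives. The fits were also run on simulated data with far fewer changed genes than were called here in mouse. That run therefore does not settle how they do under so broad a change. Rat promoters were read from RefSeq GRCr8 and mouse positions from GENCODE M21.

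The members and gene lists were chosen with earlier results of these data known. The text names all members, Sox9, Col2a1 and Acan, and of each other list up to 3 genes, taken by smallest adjusted P over both species, with a mean of at least 1 FPKM in a group, and the 5 genes nearest to Acta2. A gene list and a gene that this rule takes are not reported here.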

Additional observations from a re-analysis of the deposited data

Results flagged for a closer look

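The log2 fold change of 9 members differed between mouse and rat in a test of the difference itself (edgeR, adjusted over all genes tested in both species). The values, mouse minus rat, were -3.58 for Acta2, -1.88 for Actg2, -3.98 for Cnn1, -1.64 for Cnn2, -3.55 for Myl9, -1.43 for Tpm1, 0.18 for Tpm2, -2.80 for Des and -0.80 for Cald1. For Cnn2 and Tpm1 the change passed the test in opposite directions in rat and mouse. For Acta2, Actg2 and Tpm2 it passed as lower in both. With 3 libraries per group, no test for outlying libraries was made.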

How the results depend on the processing

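The rat count of 5 called members lay between 5 and 6 under other scalings, tools and filters and was 1 with the study's criteria, as read here, for differentially expressed genes. It ranged from 4 to 6 on leaving out each library. The mouse count of 9 ranged from 9 to 10 on leaving out each library and was 6 with those criteria. The count of 9 for the difference between species lay between 8 and 10 under other scalings, tools and filters, was 7 with a minimum difference of 0.85, and ranged from 8 to 10 on leaving out each library. On counts in place of FPKM, the Acta2 share was 8.94% in MC and 0.629% in MM.

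No pairing by replicate number was detected. Correlations between libraries with the same number were -0.0977 to 0.0849 for rat pairs and 0.00124 to 0.0149 for mouse pairs. Rat pairs with different numbers ran from -0.185 to 0.162, so these few correlations cannot settle whether samples were paired. With a replicate block, 5 rat members, 9 mouse members and 9 differences were called. In rat, the block ended the call of Actg2 (adjusted P = 0.0638) and gave that of Cald1 (adjusted P = 0.0221).

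DESeq2 and no filter also ended the rat call of Actg2 (adjusted P = 0.108 and 0.0659) and gave that of Cald1 (0.0185 and 0.0234), and upper quartile factors gave that of Des (0.0341). The difference of Tpm2 was -0.11 with library size alone, -0.10 with limma on log2(FPKM + 1) and -0.11 on log2(FPKM + 0.1), and lost its call with upper quartile factors (adjusted P = 0.173) and without RC replicate 3, RM replicate 1, RM replicate 3, MC replicate 2 or MM replicate 3 (0.0519 to 0.0856). Rat Cnn1, which was not called, was -0.029 without RM replicate 2 and ranged up to 0.82 on leaving out the others. The rat Acta2 change ranged from -0.99 to -0.77 on leaving out each library, on either side of the 0.85 of the criteria. Limma on log2(FPKM + 1), whose pseudocount shrinks changes of scarce genes, gave -0.80 for Cnn1, -1.49 for Des and -1.46 for Actg2 in mouse and -0.35 for Actg2 in rat, all with the same call. The other causes were not tested. Depth limits Cnn1 in both species and Actg2, Des and Tagln in mouse, whose model groups had few counts.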
